A study of Mus musculus with 25 samples.

Results

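Platelet-derived growth factor (PDGF) signalling was followed through 7 genes of the 37406 in the deposited table, taken by gene symbol. They are the ligand genes Pdgfa, Pdgfb, Pdgfc and Pdgfd, the receptor genes Pdgfra and Pdgfrb, and Pdgfrl, which encodes a receptor-like protein. Each symbol had 1 row. All samples were wild type CD1 mouse embryos at E14.5, when the palatal shelves have just met in the midline, and RNA came from palate compartments cut out by laser capture microdissection. There were 25 libraries, 13 anterior and 12 posterior, from the medial, lateral, oral and nasal compartment of each, with 3 replicates per compartment and 4 of anterior nasal. Medial and lateral divide the shelf in one direction and oral and nasal in the other, so the compartments overlap in the tissue they hold. The labels do not say whether replicates came from separate embryos, and p-values measure only the spread between these samples.

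PDGF ligands are secreted as dimers and act on receptor tyrosine kinases. In most tissues epithelium, endothelium or other cells make the ligand and mesenchymal cells carry the receptor. PDGF-AA and PDGF-CC act mainly through the alpha receptor, PDGF-BB through both receptors and PDGF-DD through the beta receptor. The A and B chains are cut inside the cell, whereas the C and D chains are secreted with a CUB domain that proteases remove outside the cell. Mice without Pdgfc or without Pdgfra develop clefts of the face and palate, and Pdgfrb marks pericytes and other mural cells as well as mesenchyme.

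The labels give palate as the tissue and name no cell type. Palatal shelves are mostly mesenchyme, and 7 of 7 mesenchyme markers (Prrx1, Twist1, Vim, Col1a1, Col1a2, Col3a1 and Osr2) reached 5 RPKM in all 25 libraries. RPKM is the read count scaled by transcript length and by the library's total reads. The compartments were not free of other cells. All 9 endothelial markers were above 0 in every library, and so were 7 of 9 epithelial and 6 of 8 pericyte and smooth muscle markers. Above 0 is a lower bar than the 5 RPKM used for mesenchyme. At 5 RPKM in all 25 libraries stood 4 of 9 endothelial, 0 of 9 epithelial and 2 of 8 pericyte and smooth muscle markers. In tissue RNA of this kind, fewer cells of a type and less RNA per cell cannot be told apart. The spacing of the low values implies 1.64 to 6.56 M reads per library (median 3.27 M). Anterior oral replicate 1 and posterior medial replicate 2 stood apart, with a median correlation with the other libraries of 0.719 and 0.658, against 0.782 to 0.886 for the other 23 libraries. This was seen in the data and is on no label. Where a result printed here turns without them, both values are given.

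The receptors were the most abundant members and the B and D ligands the least. Over the 25 libraries the median level was 50.05 RPKM for Pdgfra (range 28.0 to 65.0), 39.5 for Pdgfrb (9.11 to 63.8), 15.1 for Pdgfa (3.96 to 39.2), 8.51 for Pdgfrl (3.28 to 23.1), 5.57 for Pdgfc (2.43 to 15.1), 2.47 for Pdgfb (0 to 5.88) and 1.95 for Pdgfd (0 to 9.11). Pdgfra was above every ligand in all 13 anterior and all 12 posterior libraries. Among the ligands, Pdgfa was the highest in 13 of 13 anterior and 8 of 12 posterior libraries, and Pdgfc was the highest in the remaining 4. These levels rest on few reads for the rarer members. With the longest coding transcript taken as the length, the median library held about 1188 reads of Pdgfra but 23.5 of Pdgfb and 31.2 of Pdgfd, whose counting error comes to 20.6% and 17.9% of the value.

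**Figure D1:**
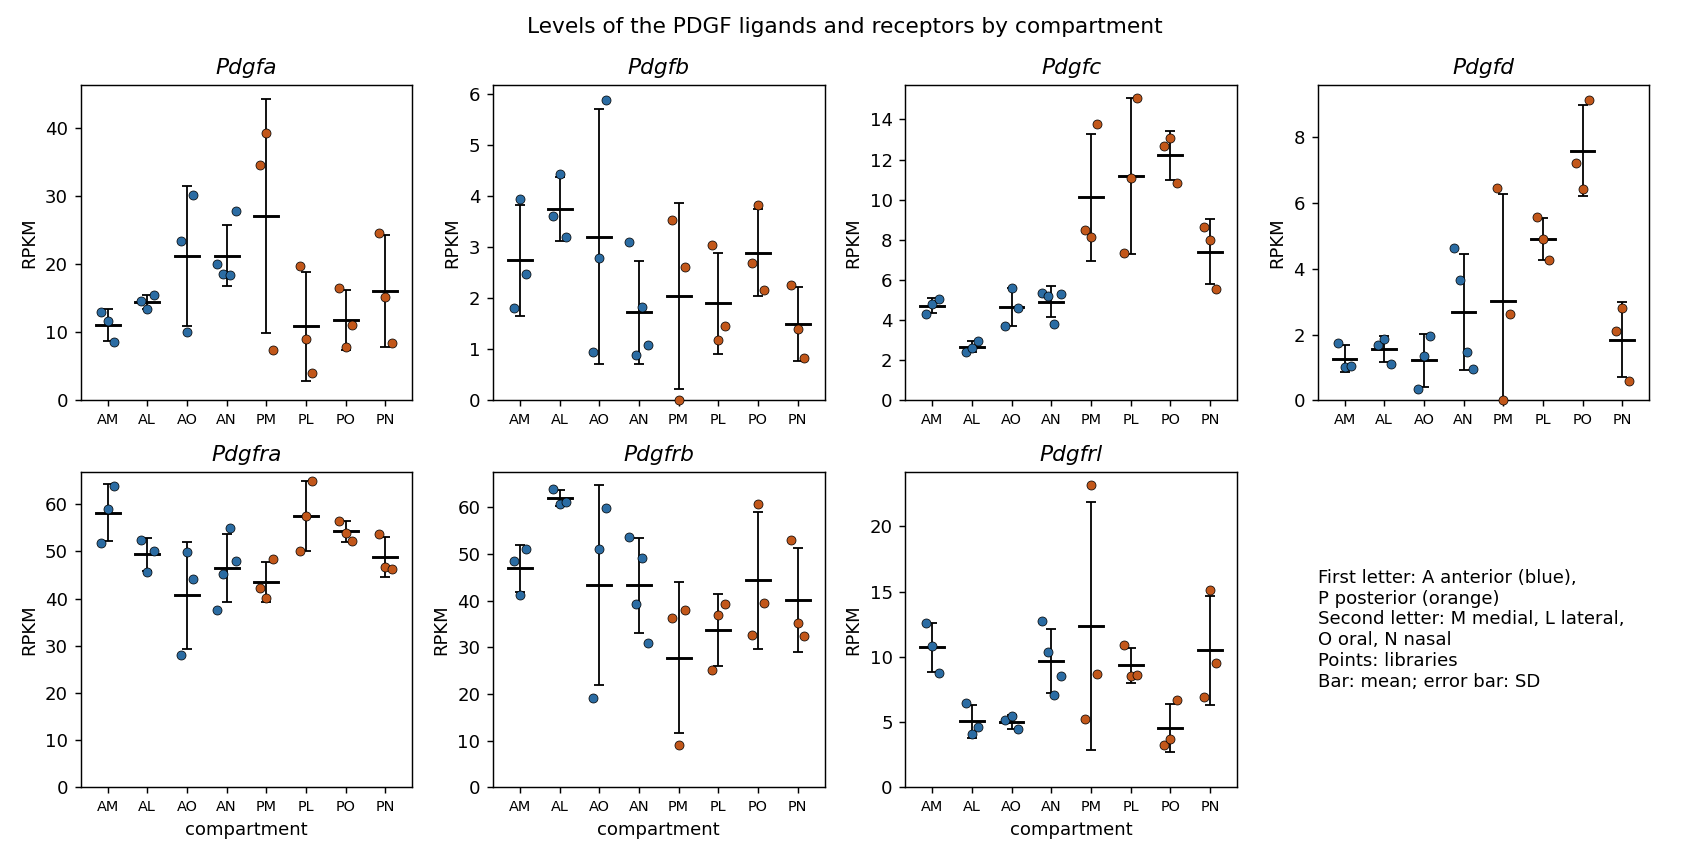
Each panel plots the RPKM of 1 member (vertical axis) in the 8 compartments (horizontal axis), with a point per library, the mean as a bar and the SD as error bar. All 4 posterior compartments had a higher mean of Pdgfc than any anterior one, and the levels of Pdgfra varied least around its median of 50.05 RPKM.

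Pdgfa, which encodes the A chain, varied widely within the posterior palate. The posterior medial libraries had 34.6, 39.2 and 7.39 RPKM, the posterior lateral ones 19.7, 9.03 and 3.96. Posterior oral libraries had 16.5, 7.79 and 11.0 RPKM and posterior nasal ones 24.6, 15.1 and 8.38. These 4 groups overlapped each other. Anterior lateral held 13.3 to 15.4 RPKM and anterior medial 8.53 to 12.98, which did not overlap, but the log2 difference of 0.40 (SE 0.17, adjusted p = 0.333, limma) was not called. In this comparison 21.3% of the 10427 genes tested did not overlap. Ordered by mean, the 8 compartments ran from posterior medial (27.1 ± 17.2 RPKM, SD, n = 3) through anterior nasal (21.2 ± 4.48, n = 4) and anterior oral (21.2 ± 10.3, n = 3) to posterior lateral (10.9 ± 8.02, n = 3), and all 7 pairs of neighbours in that order overlapped. Without the libraries that stand apart the means of posterior medial and anterior oral were 21.0 and 20.1 RPKM (n = 2 each), both below anterior nasal. The posterior less anterior log2 difference of Pdgfa was -0.28 (SE 0.30, adjusted p = 0.727), and limma called it in 0 of the 11 comparisons, in which it was tested each time. Its lowest unadjusted p was 0.05, between anterior lateral and medial. Between posterior lateral and medial, where limma called 0% of 10324 genes and 159 had p under 0.05 before adjustment, the difference was -1.27 (SE 0.84, adjusted p = 0.957). Most like Pdgfa over the 25 libraries, among 11913 genes, were Sh2d1b1, Usp27x and Dynlrb1 (r = 0.80, 0.79 and 0.78, and 0.73 to 0.77 without the libraries that stand apart).

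Pdgfa levels went with those of epithelial markers, as a description over 25 libraries that differ in depth (r = 0.53 on the log2 scale, and 0.46 without the 2 libraries that stand apart). They went about as much with pericyte and smooth muscle markers (r = 0.53 and 0.50) and with macrophage markers (r = 0.50 and 0.42). The library with the highest Pdgfa, posterior medial replicate 2, also had the highest summed epithelial level, 177 RPKM over 9 markers. The sum ran from 43.4 to 150 RPKM in anterior libraries and from 26.6 to 72.7 in the other 11 posterior ones, and was 63.1 in posterior medial replicate 1, which had 34.6 RPKM of Pdgfa. The defining epithelial markers Epcam and Cdh1 were above 0 in all 25 libraries, and Krt8 and Krt18 were each at 0 in 1. The part of epithelium in the Pdgfa levels was not tested.

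Pdgfb, the B chain, reached 5 RPKM in 1 library only and met the expression minimum of 0 comparisons. It had 3.61, 4.42 and 3.21 RPKM in anterior lateral and 1.19, 1.46 and 3.03 in posterior lateral, which did not overlap, as for 19.2% of the genes tested within lateral. In oral it had 0.944, 2.78 and 5.88 RPKM anteriorly and 2.68, 3.82 and 2.17 posteriorly, which did. Nasal libraries lay between 0.823 and 3.10 RPKM. With no expression minimum the largest log2 difference of Pdgfb was -1.45 (SE 0.93, adjusted p = 0.628), posterior less anterior within medial, where posterior medial replicate 2 is listed at 0. Without that library it was 0.21 (SE 0.62, adjusted p = 1). All 7 pairs of neighbours in the order of its 8 compartment means overlapped.

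Endothelium is a known source of PDGF-BB, and Pdgfb went with the summed level of 9 endothelial markers (r = 0.67 over 25 libraries, and 0.73 over the 23 without the pair that stands apart, as a description). That sum was lowest in posterior nasal, at 68.0 to 109 RPKM, where Pdgfb averaged 1.498 ± 0.73 RPKM (SD, n = 3), the lowest of the 8 means. It was 181 to 213 RPKM in anterior lateral, where Pdgfb averaged 3.75 ± 0.62 RPKM (SD, n = 3), the highest mean, although anterior oral averaged 4.33 RPKM (n = 2) without anterior oral replicate 1. Anterior lateral did not have the highest endothelial sum. Its mean sum was 196 RPKM, against 204 in anterior oral and 204 in posterior oral, where Pdgfb averaged 3.20 and 2.89 RPKM over all libraries. Pdgfb also went with neuron and Schwann cell markers (r = 0.49 over 25 libraries and 0.39 over 23). With pericyte and smooth muscle markers it had r = 0.13 over 25 and 0.52 over 23, and with osteoblast markers -0.16 and -0.60. How much of Pdgfb the endothelial share accounts for was not tested.

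**Figure D2:**
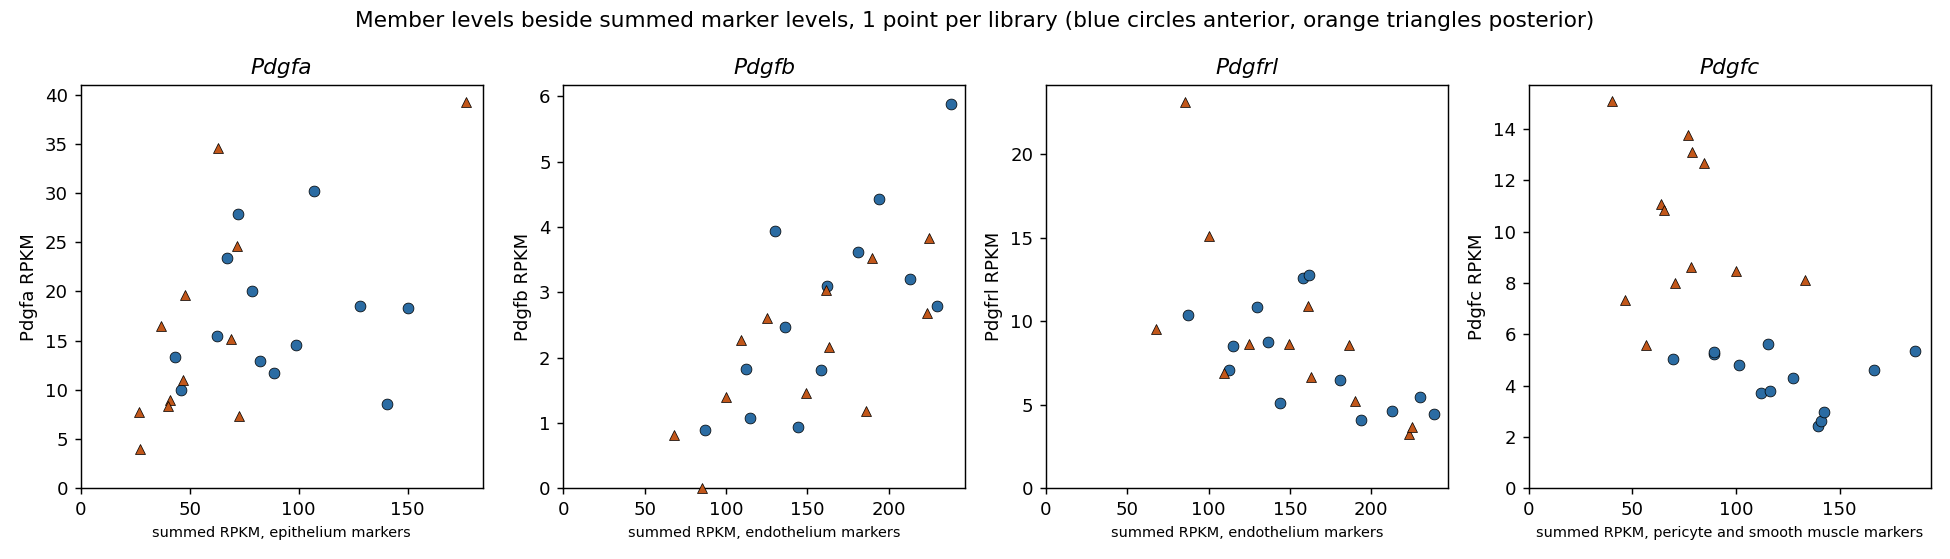
Each panel plots the RPKM of 1 member (vertical axis) against the summed RPKM of a list of markers (horizontal axis), with a point per library, blue circles for anterior and orange triangles for posterior. Pdgfb was higher and Pdgfrl lower in libraries with more endothelial marker RNA (r = 0.67 and -0.69 on the log2 scale). The sums of pericyte and smooth muscle markers were 40.3 to 133 RPKM in posterior and 69.8 to 187 in anterior libraries. The 133 RPKM belongs to posterior medial replicate 2, a library that stands apart, and the next posterior sum was 99.9. The part of these cells in the Pdgfc levels was not tested.

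Pdgfc and Pdgfd, the ligands with a CUB domain, both had their highest mean in the posterior oral compartment. For Pdgfc this compartment overlapped posterior lateral and posterior medial, each with a library (15.1 and 13.8 RPKM) above every posterior oral one. The 250 bases before the RefSeq start of Pdgfc and of Pdgfd are shown because posterior oral is where both genes averaged most. Both are on the plus strand of GRCm38.p6, for Pdgfc at chr3:81036166-81036415 and for Pdgfd at chr9:6168236-6168485, and capitals mark matches on either strand to a TATA box (TATAAA), to a CCAAT box (CCAAT) or to a GC box (GGGCGG), which do not overlap here.
Pdgfc: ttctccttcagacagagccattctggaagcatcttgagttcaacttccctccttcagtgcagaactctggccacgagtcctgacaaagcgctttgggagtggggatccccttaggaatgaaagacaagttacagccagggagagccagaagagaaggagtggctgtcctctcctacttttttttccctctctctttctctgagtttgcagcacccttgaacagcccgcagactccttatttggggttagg
Pdgfd: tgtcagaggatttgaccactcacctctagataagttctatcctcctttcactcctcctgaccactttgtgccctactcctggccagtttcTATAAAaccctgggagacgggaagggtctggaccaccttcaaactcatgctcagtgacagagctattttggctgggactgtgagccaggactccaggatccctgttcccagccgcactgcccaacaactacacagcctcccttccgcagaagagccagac
The Pdgfc window held none of the 3 motifs and had 50.8% G and C with 3 CpG, and that of Pdgfd held a TATA box 1 time and had 53.6% G and C with 3 CpG. Among 32851 such windows in the table, 12.4% held a TATA box, 33.8% a CCAAT box and 32.7% a GC box, and the median window had 52.4% G and C and 6 CpG. A match of letters is a description and not a site. The bases just after the listed start were found in a known transcript of Pdgfc but not of Pdgfd. The place of the Pdgfd start, and so of its window, is therefore less sure. Windows for Pdgfa and Pdgfra were matched but are not shown, and Pdgfb, Pdgfrb and Pdgfrl had none in the table.

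Pdgfc was higher in the posterior than in the anterior palate, the 1 member called on this axis. Pdgfc was named in the study of these samples, so its direction is not independent evidence. Gene ID 54635 is listed on chromosome 3 at 80840338 to 81017953 (the submitters' notes name mm9). Posterior medial libraries had 8.47, 8.12 and 13.8 RPKM against 4.32, 4.79 and 5.04 in anterior medial. Posterior lateral libraries had 7.32, 11.1 and 15.1 RPKM against 2.43, 2.63 and 2.98 in anterior lateral. In neither compartment did the libraries overlap. Posterior oral libraries had 12.7, 13.1 and 10.8 RPKM against 3.72, 5.61 and 4.62 in anterior oral. Posterior nasal libraries had 8.64, 8.01 and 5.57 RPKM against 5.37, 5.22, 3.80 and 5.32 in anterior nasal. Again the libraries did not overlap, and the only crossing on the axis was between compartments, where posterior nasal replicate 3 lay just under anterior oral replicate 2. Thus 11 of 12 posterior libraries were above every anterior one.

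Averaged over libraries, Pdgfc stood at 10.2 ± 2.96 RPKM (SD, n = 12) posteriorly against 4.296 ± 1.09 RPKM (SD, n = 13) anteriorly, a 2.33-fold difference on the log2(RPKM + 0.1) scale (log2 difference 1.22, SE 0.16, adjusted p = 1.95e-05, limma). It was the only one of the 5 members that met the expression minimum of this comparison to be called, where 3.32% of 8608 genes were. It met that minimum (10 RPKM in 6 libraries) through posterior libraries alone, 6 of 12 against 0 of 13, so it had to differ. With no minimum the adjusted p was 8.47e-05. With each of the 25 libraries left out in turn at a minimum of 5 RPKM in 3 libraries, an alternative chosen after the data were seen, it was called in all 25, with log2 differences of 1.16 to 1.30 and an adjusted p of at most 8.22e-05. Without both libraries that stand apart the difference was 1.23 (adjusted p = 3.45e-05), and with the sequencing run in the fit it was 1.34 (adjusted p = 0.00161). The main fit pooled the compartments of each side with no term for them. They overlap in the tissue they hold, so n counts libraries and may overstate the independent samples.

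The size of the difference ran from the lateral to the nasal compartment. Contrasts in a shared fit of the 8 compartments gave a log2 difference of 1.964 in lateral (SE 0.26, adjusted p = 0.000247), 1.39 in oral (SE 0.26, adjusted p = 0.0108), 1.05 in medial (SE 0.26, adjusted p = 0.0436) and 0.57 in nasal (SE 0.24, adjusted p = 0.346). The first 3 were called, where 0.865%, 0.512% and 1.66% of 11913 genes were called within lateral, oral and medial, and 19.2%, 8.89% and 12.5% did not overlap. The median difference over all genes was -0.12 in medial, -0.03 in lateral and 0.11 in oral and in nasal. Within nasal 1.91% of genes were called, Pdgfc not among them, and 20.2% did not overlap. Whether lateral and medial differed in the size of the change was tested as an interaction, at 0.92 (SE 0.37, adjusted p = 0.896), and oral against nasal at 0.82 (SE 0.36, adjusted p = 1). Neither was called, where 0.0923% and 0.0755% of genes were. The call within oral was lost without anterior oral replicate 1 (1.24, adjusted p = 0.0912), without posterior oral replicate 1 or 2, or with the run in the fit (1.39, adjusted p = 0.346). The call within medial was lost without any 1 anterior medial library or posterior medial replicate 3, and with the replicate block it had an adjusted p of 0.0629. Without posterior medial replicate 2 it was 1.18 (adjusted p = 0.0404). Within lateral the call held with any 1 of the 6 libraries left out and had an adjusted p of 0.0582 with the run in the fit.

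The libraries came from 8 sequencing runs, and some runs held posterior and anterior libraries of the same compartment. In run G the 2 posterior medial libraries averaged 10.9 RPKM and the 3 anterior medial ones 4.72, a log2 difference of 1.15. In run H the 2 posterior lateral libraries averaged 13.1 RPKM against 2.98 in 1 anterior lateral library. Run C held 1 library each of posterior and anterior oral, with 12.7 and 4.62 RPKM, and 1 each of posterior and anterior nasal, with 8.64 and 5.32. Pdgfc was thus higher in posterior in 4 of 4 comparisons within a run. Posterior and anterior libraries overlapped in no compartment, so this direction was fixed in advance and is no separate evidence.

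**Figure D3:**
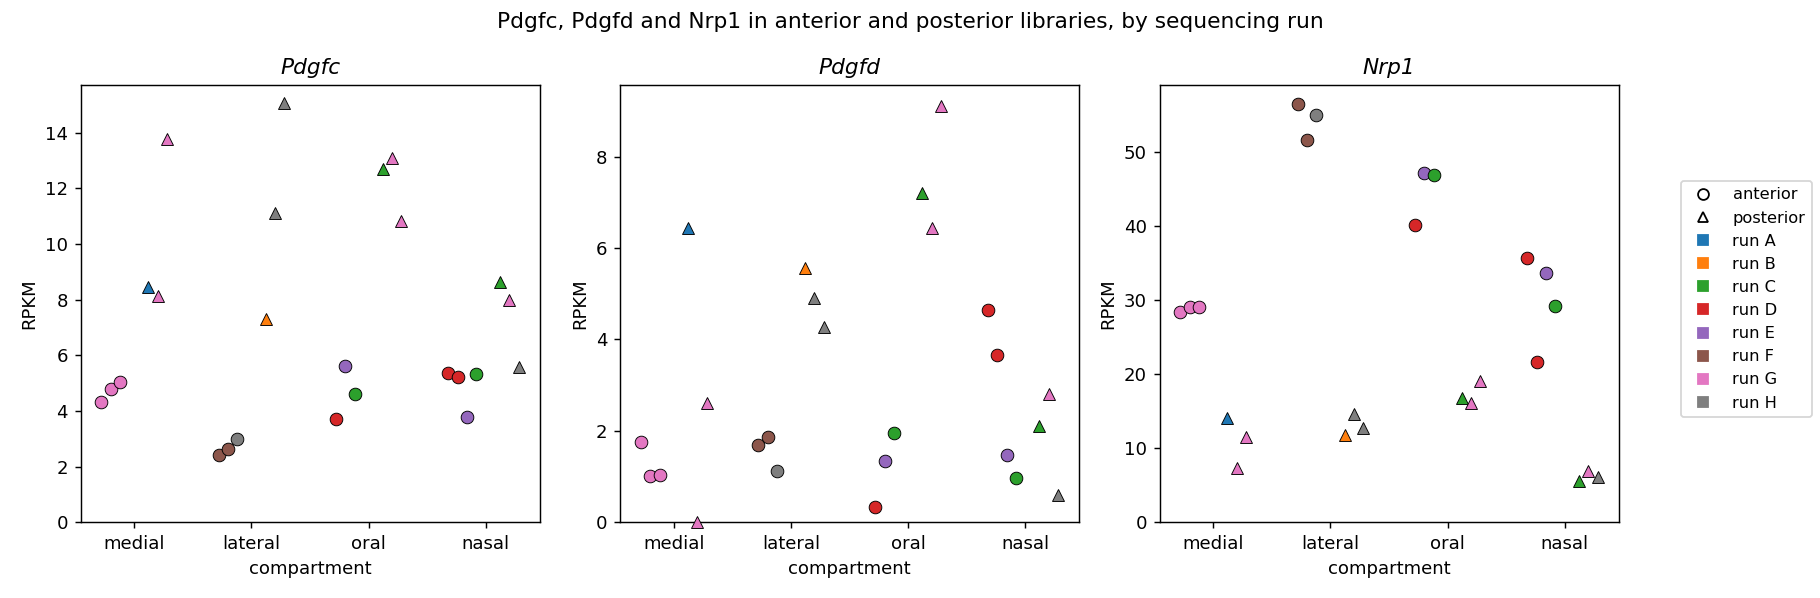
Panels plot the RPKM (vertical axis) of Pdgfc, Pdgfd and Nrp1 in each library by compartment (horizontal axis), with circles for anterior and triangles for posterior libraries and a colour for each of the 8 runs. Within each compartment Pdgfc triangles lie above the circles, while Nrp1 triangles, at 5.63 to 19.0 RPKM, lie below all Nrp1 circles, at 21.7 to 56.5 RPKM.

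Markers of other cells moved along the same axis. The summed level of 8 pericyte and smooth muscle markers was 40.3 to 133 RPKM in posterior and 69.8 to 187 in anterior libraries. The 133 RPKM belongs to posterior medial replicate 2, a library that stands apart, and the next posterior sum was 99.9. Of the 5 pericyte and smooth muscle markers tested, 2 were lower in posterior and 0 higher. Of 7 mesenchyme markers 1 was higher and 1 lower, and of 9 endothelial and 4 epithelial markers tested 0 were called. The summed level of 4 cartilage markers was 45.7 to 127 RPKM in posterior and 17.01 to 107 in anterior libraries. Of the 2 tested, 1 was called higher in posterior, Col2a1, a cartilage collagen gene (log2 difference 1.20, SE 0.25, adjusted p = 0.00374), and within lateral and within oral 1 of 3 was called higher. Within medial the direction was the other one, with 1 of 3 called lower in posterior and 0 higher. There the cartilage sum was 55.4 to 64.6 RPKM in posterior and 66.0 to 107 in anterior libraries. Within nasal 0 of 3 were called. Over the 25 libraries Pdgfc had r = -0.65 with the pericyte and smooth muscle sum and 0.58 with the cartilage sum (-0.68 and 0.56 without the libraries that stand apart), as a description. Acta2, Tagln, Rgs5 and Cspg4, which define mural cells, were above 0 in all 25 libraries, and Kcnj8 and Higd1b were at 0 in 2 and 7. The part of the cell mixture in the Pdgfc difference was not tested.

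Pdgfc also differed along other directions of the shelf, without being called. In the anterior palate it was lower in lateral (2.43 to 2.98 RPKM) than in medial (4.32 to 5.04), and these did not overlap, as for 21.3% of the genes tested there. It was under the expression minimum there, and with no minimum the log2 difference was -0.80 (SE 0.14, adjusted p = 0.0908). In the posterior palate the oral libraries (10.8 to 13.1 RPKM) lay above the nasal ones (5.57 to 8.64), with a log2 difference of 0.73 (SE 0.24, adjusted p = 0.321). In that comparison 11.8% of genes did not overlap. Posterior lateral and medial overlapped (0.12, SE 0.39, adjusted p = 0.966), as did anterior oral and nasal (-0.09, SE 0.25, adjusted p = 1). Without the library that stands apart in each, these differences were -0.01 and 0.06. The genes whose log2 level was most like that of Pdgfc over the 25 libraries, among 11913 genes, were Lingo2 (r = 0.90), Susd5 (r = 0.86) and Meox2 (r = 0.85), a homeobox gene, with r of 0.87 to 0.91 without the libraries that stand apart. All 3 of these correlations are over libraries that differ between anterior and posterior, and they are given as a description.

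Pdgfd, the D chain, had its highest mean in posterior oral. It had 7.20, 6.43 and 9.11 RPKM in posterior oral, 5.56, 4.91 and 4.27 in posterior lateral, and 6.44, 0 and 2.61 in posterior medial, where the 0 is posterior medial replicate 2. Posterior nasal libraries had 2.11, 2.82 and 0.595 RPKM. Posterior oral did not overlap its nearest neighbour, posterior lateral. Anterior libraries lay between 0.340 and 4.64 RPKM, highest in anterior nasal, and 6 of 12 posterior libraries were above all 13 of them.

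Between posterior oral and nasal, the fitted levels of Pdgfd differed 4.61-fold, which was not called (log2 difference 2.20, SE 0.49, adjusted p = 0.0955). Pdgfd and Pdgfrl met a looser threshold, p under 0.05 before adjustment with more than 2-fold change, as did 3.5% of 10586 genes. Both are among the genes that the study lists for this comparison, so their direction is not independent evidence. Pdgfd passed the expression minimum only through the oral libraries, 3 of 3 against 0 of 3. A pseudocount of 1 in place of 0.1 gave an adjusted p of 0.0472, and the other 8 settings gave no call. Neither did leaving out a nasal library, and without an oral one Pdgfd was under the minimum. Within a run the difference was 1.72 (run C, 1 library each) and 1.41 (run G, 2 oral and 1 nasal). Between posterior and anterior oral the log2 difference was 2.80 (SE 1.01, adjusted p = 0.539) with libraries that did not overlap, as for 8.89% of genes. It was 2.14 (adjusted p = 1) without anterior oral replicate 1, and 2.50 (adjusted p = 0.0285) after quantile normalization. Within lateral it was 1.62 (SE 1.01, adjusted p = 1), again with no overlap, where 19.2% of genes did not overlap. Within medial and nasal the libraries overlapped, at -0.13 and -0.50. Without posterior medial replicate 2 the posterior medial libraries (2.61 and 6.44 RPKM) lay above all 3 anterior medial ones (1.02 to 1.75), at 1.67 (SE 0.67, adjusted p = 0.5), where 12.5% of genes did not overlap with all libraries in. Pooled over the palate and with no minimum, the posterior less anterior difference of Pdgfd was 0.90 (SE 0.54, adjusted p = 0.532), and 1.19 (SE 0.36, adjusted p = 0.0783) without both libraries that stand apart. The difference between its oral-nasal differences, posterior less anterior, was 3.30 (SE 1.38, adjusted p = 1).

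The makeup of the ligand pool followed from these levels. Taken per length and summed over the 4 ligands, Pdgfa made up 64.7 ± 9.93% (SD, n = 13) in anterior and 46.5 ± 19.8% (SD, n = 12) in posterior libraries, and Pdgfc 17.3 ± 6.26% and 33.7 ± 13.9%. The lowest Pdgfc share was 10.8%, in an anterior library, and the highest 60.9%, in a posterior lateral one, and anterior and posterior shares overlapped. Pdgfd made up 22.2 ± 4.73% (SD, n = 3) in posterior oral and 17.2 ± 1.56% (SD, n = 3) in posterior lateral, against 4.196 ± 2.83% (SD, n = 3) in anterior oral. The summed ligand level overlapped, at 26.1 ± 7.24 RPKM (SD, n = 13) in anterior and 33.1 ± 10.3 RPKM (SD, n = 12) in posterior libraries. These shares are descriptions, with no test.

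**Figure D4:**
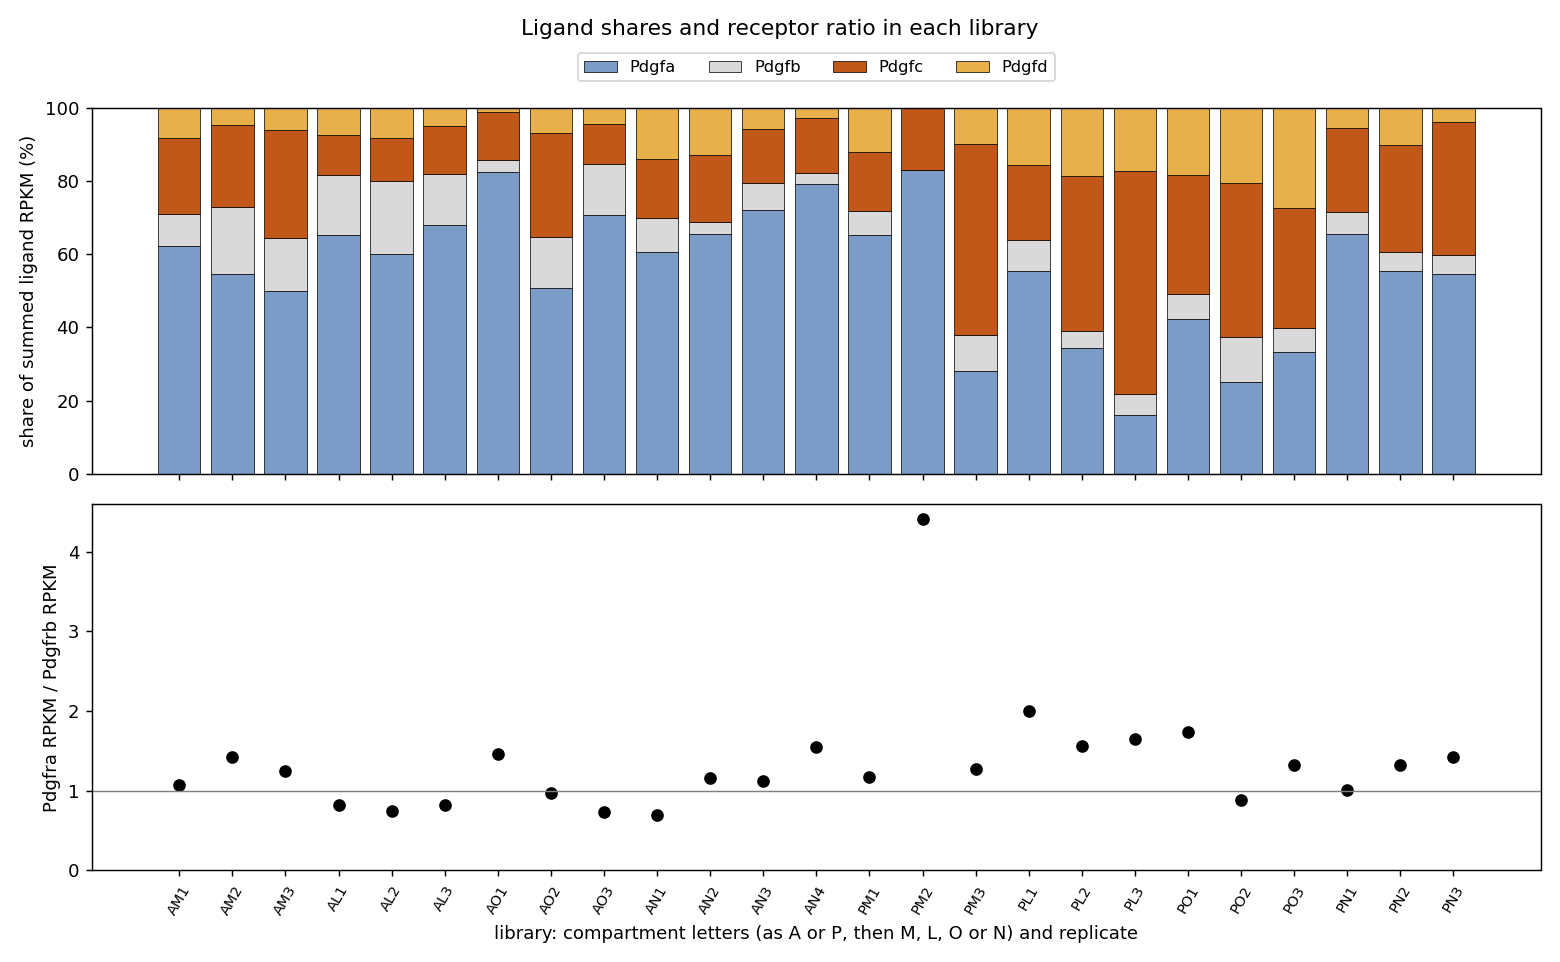
The upper panel stacks the share (percent) of each ligand in the summed ligand RPKM of each library, and the lower panel plots the Pdgfra level divided by that of Pdgfrb, with libraries along the horizontal axis. Pdgfc took 10.8% to 29.5% in anterior and 16.0% to 60.9% in posterior libraries, and the ratio was highest, at 4.41, in posterior medial replicate 2, a library that stands apart.

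Pdgfra, the alpha receptor, was the most even member. Its compartment means ran from 58.2 ± 6.04 RPKM (SD, n = 3) in anterior medial to 40.7 ± 11.3 RPKM (SD, n = 3) in anterior oral, and all 7 pairs of neighbours in that order overlapped. The lowest library, 28.0 RPKM, was anterior oral replicate 1, and without the libraries that stand apart the range was 37.5 to 65.0 RPKM and the anterior oral mean 47.0. The posterior less anterior log2 difference was 0.09 (SE 0.11, adjusted p = 0.768). Between posterior and anterior oral the libraries did not overlap, at 52.2 to 56.5 against 28.0 to 49.9 RPKM, with a log2 difference of 0.46 (SE 0.20, adjusted p = 0.661) that fell to 0.21 without anterior oral replicate 1. In oral 8.89% of genes did not overlap. Within medial the posterior libraries lay below the anterior ones, at 40.2 to 48.3 against 51.9 to 63.9 RPKM (-0.42, SE 0.20, adjusted p = 0.347), as for 12.5% of genes. Neither was called. Between posterior lateral and medial the libraries did not overlap either, as for 6.62% of genes (0.39, SE 0.26, adjusted p = 0.957). Nudcd3, Dgat1 and 9430015G10Rik were most like it over the 25 libraries (r = 0.82, 0.82 and 0.80), which fell to 0.61 to 0.65 without the libraries that stand apart.

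Pdgfrb, the beta receptor, was highest in anterior lateral, at 63.8, 60.7 and 61.2 RPKM. Anterior medial libraries had 48.5, 41.3 and 51.0 RPKM and so lay below all 3 lateral ones, a log2 difference of 0.40 (SE 0.12, adjusted p = 0.159) that was not called. In that comparison 21.3% of genes did not overlap. Posterior lateral had 25.03, 36.8 and 39.3 RPKM, below every anterior lateral library, with a posterior less anterior difference of -0.90 (SE 0.46, adjusted p = 1). Within lateral 19.2% of genes did not overlap. Posterior medial had 36.2, 9.11 and 38.1 RPKM. The posterior less anterior difference within medial was -1.003 (SE 0.46, adjusted p = 0.328), and without posterior medial replicate 2, the library at 9.11 RPKM, it was -0.33 (adjusted p = 1). In oral and nasal, anterior and posterior overlapped, and over the whole palate the difference was -0.46 (SE 0.22, adjusted p = 0.332). Limma called Pdgfrb in 0 comparisons, and its p before adjustment was under 0.05 in 2, anterior lateral against medial (0.0117) and within medial (0.0398).

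Relative to each other, Pdgfra exceeded Pdgfrb in 7 of 13 anterior and 11 of 12 posterior libraries, with a ratio of 1.07 ± 0.29 (SD, n = 13) and 1.65 ± 0.92 (SD, n = 12). Without the libraries that stand apart the ratio was 1.03 ± 0.28 (SD, n = 12) and 1.40 ± 0.32 (SD, n = 11). Anterior lateral had the lowest mean ratio, with libraries at 0.752 to 0.822, and posterior lateral had 1.56 to 2.00, so the lateral libraries did not overlap on this measure. Pdgfrb levels went with the summed pericyte and smooth muscle markers once the 2 libraries that stand apart were left out (r = 0.68 over 23 libraries, and 0.21 over 25, as a description). That sum was 140 to 142 RPKM in anterior lateral and 40.3 to 63.8 in posterior lateral. The share of mural cells in the Pdgfrb levels was not tested. Tep1, Itpkb and Ctnnd1 were most like Pdgfrb (r = 0.93, 0.92 and 0.91 over 25 libraries, and 0.77 to 0.85 over 23).

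Pdgfrl encodes an immunoglobulin domain protein that resembles the outer part of the PDGF receptors and has no kinase. It was lower in anterior lateral, with 6.49, 4.10 and 4.65 RPKM, than in anterior medial, with 12.57, 10.8 and 8.78. The libraries did not overlap, as for 21.3% of genes, and the difference was called (log2 difference -1.08, SE 0.21, adjusted p = 0.0425). It was the 1 member called of the 4 tested, where 2.51% of 10427 genes were called and 1.08% were called lower in lateral. The study lists Pdgfrl for this comparison too, so its direction is not independent evidence. It met the expression minimum through 3 medial libraries and 1 lateral one. The 3 medial libraries came from 1 run and the lateral ones from others, so run and compartment cannot be told apart here, and with the run in a fit of all 25 samples the difference was -0.67 (adjusted p = 1). The call was lost in 5 of the 6 settings that left out 1 library, all but the one without anterior lateral replicate 1, and with no expression minimum (adjusted p = 0.146). In the posterior palate, lateral (10.9, 8.56 and 8.62 RPKM) and medial (5.21, 23.1 and 8.67) overlapped, where 23.1 is the library that stands apart.

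Along the other direction the oral libraries held less Pdgfrl than the nasal ones in the anterior and in the posterior palate, but limma called neither difference. Anterior oral libraries had 5.13, 5.48 and 4.44 RPKM and anterior nasal ones 12.8, 10.3, 7.10 and 8.51, with a log2 difference of -0.91 (SE 0.27, adjusted p = 0.922). Here limma called 0 of 10684 genes (0%), and 318 were under 0.05 before adjustment. Posterior oral libraries had 3.28, 3.68 and 6.67 RPKM and posterior nasal ones 6.90, 15.1 and 9.55, with a log2 difference of -1.19 (SE 0.36, adjusted p = 0.272), where 1.25% of 10586 genes were called. The groups did not overlap in either, as for 3.67% of anterior and 11.8% of posterior genes. Within a run Pdgfrl was lower in oral in 5 of 5 comparisons, from -0.37 to -1.15 in the anterior and at -1.05 and -1.59 in the posterior palate. That direction was fixed in advance by the groups not overlapping and is no separate evidence. The oral-nasal difference of Pdgfrl, posterior less anterior, was -0.28 (SE 0.56, adjusted p = 1).

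Endothelial and osteoblast markers also differed between posterior oral and nasal. The summed endothelial level was 163 to 225 RPKM in oral and 68.0 to 109 in nasal, with 1 of 9 markers called higher in oral and 0 lower. The summed osteoblast level was 91.8 to 119 RPKM in oral and 416 to 621 in nasal, with 5 of the 5 markers tested called lower in oral. Also called lower in oral were 1 of 3 cartilage and 1 of 5 epithelial markers tested, with 0 higher in either list. Over 25 libraries Pdgfrl had r = -0.69 with the endothelial sum and 0.16 with the osteoblast sum, and their part in its level was not tested. In the anterior palate the endothelial sum was 181 to 213 RPKM in lateral and 130 to 158 in medial, with 0 of 9 markers called. The cartilage sum was 20.3 to 21.5 RPKM in lateral and 66.0 to 107 in medial there, with 2 of the 3 cartilage markers tested (Acan and Sox9) and 1 of the 2 osteoblast markers tested (Runx2) called lower in lateral. Called higher in lateral were 1 of 7 mesenchyme and 1 of 7 pericyte and smooth muscle markers tested. Of 6 epithelial markers tested 1 was called higher and 1 lower, and so for 3 neuron and Schwann cell markers. Their part in the Pdgfrl difference was not tested. Genes most like Pdgfrl were Fhl2 (r = 0.83), Twist1 (r = 0.79), a mesenchymal transcription factor gene, and Sema3a (r = 0.78).

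**Figure D5:**
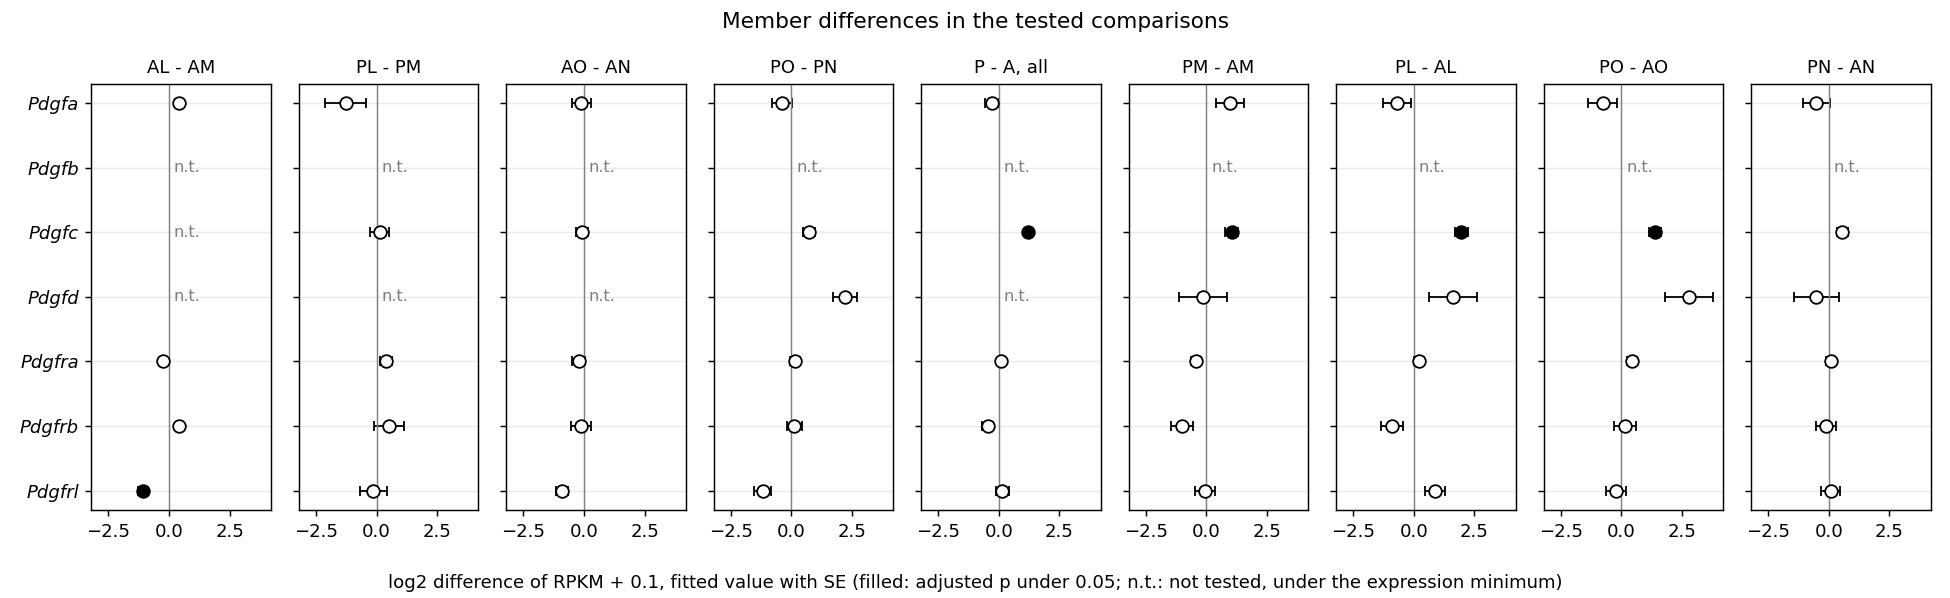
Each panel is 1 comparison (A anterior, P posterior, M medial, L lateral, O oral, N nasal) and plots the fitted log2 difference of each member with its standard error, filled where the adjusted p is under 0.05 and marked n.t. where the member was under the expression minimum. Filled points are Pdgfrl, at -1.08 in anterior lateral less medial, and Pdgfc in posterior less anterior, at 1.22 in all and 1.05, 1.964 and 1.39 in medial, lateral and oral.

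Other genes of the pathway were examined in lists of ligand processing and binding, signal relay, receptor downregulation and immediate early targets. Of the 9 genes for ligand processing and binding, 6 were tested between posterior and anterior, of which 2 were lower in posterior and 0 higher, with a median log2 difference of 0.00 against 0.03 over all genes. One was Nrp1, which encodes neuropilin 1, a co-receptor for VEGF and class 3 semaphorins that also takes part in PDGF signalling. Its 12 posterior libraries had 5.63 to 19.0 RPKM (median 12.3) and its 13 anterior ones 21.7 to 56.5 RPKM (median 35.7), with no overlap, as for 0.267% of the 8608 genes. The log2 difference was -1.75 (SE 0.20, adjusted p = 2.23e-06), and it was called in all 11 other settings and with each of the 25 libraries left out. It was called in each compartment too, at -1.44 in medial, -2.05 in lateral, -1.36 in oral and -2.24 in nasal, with an adjusted p of at most 0.00261. So Nrp1 and Pdgfc moved in opposite directions along the axis, and the Nrp1 level divided by that of Pdgfc was 4.16 to 23.3 in anterior and 0.651 to 1.76 in posterior libraries.

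Nrp1 was also higher in anterior lateral than in anterior medial (log2 difference 0.91, SE 0.10, adjusted p = 0.00649) and in posterior oral than in posterior nasal (1.47, SE 0.20, adjusted p = 0.0163). With the run in a fit of all 25 samples these had an adjusted p of 1 and 0.0466. The other called gene of this list was Pcsk5, a proprotein convertase, lower in posterior by -0.61 (SE 0.17, adjusted p = 0.0428), lower in anterior lateral than medial (-1.01, SE 0.17, adjusted p = 0.0244) and lower in posterior medial than anterior medial (-1.18, SE 0.27, adjusted p = 0.0234). With the run in the fit the adjusted p of these 3 Pcsk5 differences was 0.659, 1 and 0.135. Of the other 7 genes of the list, Furin, Pcsk6, Pcsk7, Plat, Plau, Sparc and Lrp1, 0 were called in the 11 comparisons.

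Of 18 signal relay genes, 17 were tested between posterior and anterior and 0 were called, beside 3.32% of all genes, with a median log2 difference of -0.04. Fyn, a Src family kinase, was higher in anterior lateral than medial (0.79, SE 0.14, adjusted p = 0.0343), and Pik3cb, a catalytic subunit of phosphoinositide 3-kinase, was lower in posterior than anterior lateral (-1.15, SE 0.24, adjusted p = 0.0189). With the run in the fit both had an adjusted p of 1. Among 5 receptor downregulation genes, all tested, and 8 immediate early targets, of which 4 to 5 were tested, limma called 0 in any of the 11 comparisons. Of the relatives in the PDGF and VEGF superfamily, 11 of 12 symbols were in the table. Vegfc, a lymphatic growth factor, was higher in anterior lateral than medial (1.25, SE 0.23, adjusted p = 0.0393) and higher in posterior than anterior medial (2.36, SE 0.44, adjusted p = 0.00541), and no other relative was called in the 11 comparisons. With the run in the fit these 2 Vegfc differences had an adjusted p of 1 and 0.034.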

How the data were processed

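Laser-captured palate compartments of E14.5 CD1 embryos were profiled by RNA-seq after RNA amplification. The authors deposited 1 table of RPKM values for 37406 genes and 25 samples, computed in GeneSpring after duplicate and multiply aligned reads were removed. The submitters' processing notes name TopHat and mm9, and the gene annotation is not given in the sources used here. All 25 value columns were used, and 1 column without the word RPKM in its name was read as RPKM, like the rest. Sequencing runs were read from the alignment names in the table header. The study gives an average number of reads over its samples and no depth per library. The depth of the reads kept was inferred from low values being whole multiples of 1 read, so it is an estimate, and for the members the length behind RPKM is unknown. The average given by the study is far above every depth inferred here. The study does not say whether that average counts reads before or after duplicate and multiply aligned reads were removed.

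Values were tested as log2(RPKM + 0.1) with limma 3.58.1 in R 4.3.3 and Benjamini-Hochberg adjustment over all genes tested, and a gene was called at an adjusted p under 0.05. Pairs of compartments were fitted alone, with genes at 5 RPKM or more in 3 samples. Posterior was compared with anterior over all samples, with the compartments of each side pooled and no term for them, and with genes at 10 RPKM or more in 6. Differences within each compartment and the differences between differences came from 1 fit of all 25 samples by compartment, with genes at 5 RPKM or more in 3. Fold changes are on the log2(RPKM + 0.1) scale, which understates those of low genes. Descriptions and figures used Python 3.11.15, numpy 2.4.6, pandas 2.3.3 and matplotlib 3.10.9. The fits were tested on simulated data.

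Members were taken by symbol. By rule the text names all members, of each list at most 4 called genes by fold change, and the 3 genes most like each member with a median of at least 5 RPKM. Uncalled list genes and markers are named only to say what a list holds. The members, the lists of pathway genes and the marker lists were chosen with earlier results of these data known. Replicate numbers were checked for pairing. With an r above 0.1 in all 3 pairs taken as pairing, same-numbered samples deviated together only for anterior oral and nasal (r = 0.242, 0.218 and 0.116), where a fit with the number as a block was made as for the other comparisons. Alternatives covered the pseudocount, scaling, the variance trend, the expression minimum, the samples fitted, the run, the replicate block and leaving out each library.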

Additional observations from a re-analysis of the deposited data

Results flagged for a closer look

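Pdgfc in anterior nasal replicate 3 was 3.80 RPKM, below the other 3 anterior nasal libraries at 5.22 to 5.37 RPKM, by a gap large for the range of 4 samples. Chance marks about 1 in 20 such groups.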

How the results depend on the processing

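Of the counts of members called, these moved. In anterior lateral against medial the 1 call (Pdgfrl) became 0 with no expression minimum, a minimum of 10 RPKM in 3 samples (where Pdgfrl was not tested), a fit of all 25 samples or the run in that fit, and 0 to 1 with a library left out. In posterior oral against nasal, a pseudocount of 1 gave 1 call (Pdgfd) in place of 0. Posterior against anterior kept 1 call (Pdgfc) in all 11 settings, and gave 0 to 1 with a library left out, 0 in the 6 settings in which Pdgfc fell under the minimum and was not tested (posterior medial replicate 3, posterior lateral replicates 2 and 3, and each posterior oral library). Within medial the 1 call became 0 with a pseudocount of 1, the variance trend, the replicate block, no minimum, the compared compartments only or the run, and 0 to 1 with a library left out. Within lateral it became 0 with the run. Within oral it became 2 with quantile normalization (Pdgfd added), 0 with the compared compartments only or the run, and 0 to 1 with a library left out. No called value changed sign. Of 49 member differences refitted without the libraries that stand apart, 17 changed sign, none of them called, among them Pdgfb and Pdgfd within medial. The cause of these changes was not tested, except that leaving out libraries and adding the run lower the residual degrees of freedom.

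Over all genes, the run in the fit gave 0 calls in place of 262 in anterior lateral against medial, 15 in place of 132 in posterior oral against nasal, 143 in place of 286 in posterior against anterior, 15 in place of 103 within lateral, 13 in place of 61 within oral, 34 in place of 227 within nasal, and 4 and 1 where limma called 0 in anterior oral against nasal and posterior lateral against medial. The fit of all 25 samples gave 31, 68, 6 and 25 in these 4 comparisons of compartments, in the order lateral-medial and oral-nasal with 262 and 132, then those with 0. With no minimum the counts were 157 in anterior lateral against medial, 11 in posterior oral against nasal and 485 in posterior against anterior, where 5 RPKM in 3 samples gave 452 and leaving out both libraries that stand apart 454. The variance trend gave 82 and 10 RPKM in 3 samples 69 in posterior oral against nasal. The compared compartments only gave 11 in place of 198 within medial and 19 within oral, and quantile normalization 177 within lateral and 2 in posterior lateral against medial. The replicate block gave 157 in anterior lateral against medial and 143 within nasal. The differences between differences, 11 and 9 genes, ranged from 0 to 19 and from 0 to 12 over these settings, and from 0 to 36 (without posterior medial replicate 3) and 1 to 7 with a library left out. With a library left out, counts ranged from 55 to 195, 12 to 57, 231 to 414, 99 to 1007 (without posterior medial replicate 3), 54 to 98, 35 to 51 and 84 to 179 in anterior lateral against medial, posterior oral against nasal, posterior against anterior, and within medial, lateral, oral and nasal.

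The block changed the call of Pdgfc within medial (adjusted p = 0.0629), of Fyn and Vegfc between anterior lateral and medial (0.0664 and 0.0928) and of Pcsk5 between posterior and anterior (0.0821), and no other call of a gene named here. Pdgfb and Pdgfd rest on few reads. Their counting error, which leaves out every other source of error, was 20.6% and 17.9% of the value in the median library and 46.8% and 75.7% in that with the fewest reads above 0.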
